A study of Danio rerio with 9 samples.

Results

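The genes described here are those of mitochondrial sulfide oxidation around sqor, with the neighbouring enzymes of cysteine breakdown. They comprise sqor (older name sqrdl), ethe1, suox, cth and mpst in the zebrafish. A probe was counted for a gene where its RefSeq identifier mapped to that gene's symbol, and 9 of the 43603 probes on the array did so. These were 2 probes of sqor, 2 of ethe1 and 5 of mpst, so 3 of the 5 genes had a probe, among 12858 gene symbols with one. No probe was matched to suox or cth, and these genes are not analysed here.

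Hydrogen sulfide is made in cells from cysteine and is toxic in excess, because it blocks the last complex of the mitochondrial respiratory chain. The mitochondrial sulfide:quinone oxidoreductase encoded by sqor oxidises sulfide and passes the electrons to ubiquinone, the persulfide dioxygenase encoded by ethe1 oxidises the resulting persulfide to sulfite, and sulfite oxidase, encoded by suox, turns sulfite into sulfate. On the producing side, cth (cystathionine gamma-lyase) and mpst (3-mercaptopyruvate sulfurtransferase) release sulfur from cysteine and its derivatives.

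RNA was taken from whole zebrafish embryos of the Tuebingen strain, 12 h after fertilization, that had been injected with mRNA for Hif-3α, for Hif-1α or, as the control, for green fluorescent protein (GFP). Hif-3α and Hif-1α are alpha subunits of the hypoxia-inducible factor, the transcription factor through which cells answer low oxygen. Each group had 3 arrays, each made from 60 pooled embryos, and replicates came from separate injection experiments. The design asks which genes each of these subunits alters when supplied in excess, and sqor is a gene that the study itself singled out for Hif-3α, so its pattern here is not independent evidence.

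Levels are log2 signals relative to the 75th percentile of the array, so that 0 is the brightness of that percentile. Differences are log2 differences between group means with their standard error (SE), and a gene is said to rise or fall only where limma gave an adjusted p under 0.05 over all 31114 probes kept. A probe was kept where some group had it well above background on each of its 3 arrays. The share of probes well above background ran from 68.6% to 75.3% over the arrays, and precision is limited by having 3 of them per group. The 75th percentile signal was 609 to 785 on Hif-3α arrays, 500 to 611 on Hif-1α arrays and 766 to 822 on control arrays. The Hif-1α arrays were thus dimmer than every control array. Levels are scaled to this percentile, and spot brightness is not. In 3 of the 4 probes of hif1al, the RefSeq symbol that carries the synonym Hif-3alpha, the Hif-3α arrays were 57.7-fold to 360-fold above control, and the brightest probe had a difference of -0.02. No probe was matched to hif1aa or hif1ab. The glycolytic gene gapdhs, by its brightest probe, was 30.8-fold above control on the Hif-1α arrays (limma, adjusted p = 0.000621) and 1.02-fold on the Hif-3α arrays (adjusted p = 0.999). Its other 3 probes were 121-fold to 135-fold above control with Hif-1α, and with Hif-3α they were at 2.17-fold to 2.36-fold and did not pass. Control replicate 2 stood apart from the other controls in egln3, a prolyl hydroxylase gene induced by hypoxia-inducible factors. Its level was 3.12 there, against -0.80 and 0.70 in control replicates 1 and 3. Among the other genes checked for activity of these factors, igfbp1a, gapdhs and vhl also had their highest control level in replicate 2. The gene ddit4 did not, with 1.25, -0.26 and -0.35 in control replicates 1, 2 and 3. Genes listed as markers of somites, nerve tissue, notochord, epidermis, hatching gland and blood were well above background on all 9 arrays. The listed markers that were not so on every array were sox17 of the endoderm and mxtx2 of the yolk syncytial layer.

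The brighter sqor probe, A_15_P102683, was highest in embryos given Hif-3α mRNA. Its level was 1.64, 1.93 and 1.30 on the Hif-3α arrays of replicates 1, 2 and 3. It was 0.13, 0.01 and 0.02 with Hif-1α, and -1.07, 0.20 and -0.68 in controls. All 3 Hif-3α arrays lay above every other array, and Hif-1α lay within the range of the controls because control replicate 2 was the highest control. In raw spot brightness, not scaled to the array, the probe gave 1795, 2926 and 1687 with Hif-3α. It gave 567, 616 and 585 with Hif-1α and 417, 934 and 503 in controls, over a local background of 28.0 to 46.0.

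Against control, the difference of this probe with Hif-3α was 2.13 ± 0.30 (SE, n = 3 a group), or 4.39-fold, with a 95% confidence interval of 1.44 to 2.82. It was the 26th largest of the 31114 differences and had the 23rd smallest p. The adjusted p of 0.103 from limma did not pass, although the groups did not overlap. Between arrays of the same replicate number the difference was 2.70, 1.72 and 1.97 for replicates 1, 2 and 3, so it was positive in all 3. Without control replicate 2 the difference was 2.49 and passed, with an adjusted p of 0.0111. In the other 20 of 21 alternative settings it did not pass. Scan day 3 held 2 Hif-3α arrays, 1 Hif-1α array and 2 controls, and within it the difference was 1.85. In whole embryos, more cells with sqor RNA and more sqor RNA per cell cannot be told apart.

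Set directly against Hif-1α, Hif-3α gave a sqor difference of 1.57 ± 0.30 (SE, n = 3 a group), or 2.97-fold, with a 95% confidence interval of 0.88 to 2.26. Its adjusted p of 0.055 from limma was just outside the threshold, and with the replicate number as a block it was 0.0337 and passed. The differences by replicate number were 1.51, 1.91 and 1.28. The sqor difference also passed without control replicate 2, at 0.0109, and without control replicate 1, at 0.042. Control arrays enter this comparison only through the spread shared by the groups, so leaving them out does not change the difference. Of 21 alternative settings it passed in 6 and not in the other 15. Within scan day 3, with its 1 Hif-1α array, the difference was 1.60.

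For Hif-1α against control the sqor difference was 0.56 ± 0.30 (SE, n = 3 a group), or 1.48-fold, with an interval of -0.13 to 1.26 that includes 0 and an adjusted p of 0.264 from limma. Same-numbered arrays disagreed in sign, with differences of 1.19, -0.19 and 0.69 for replicates 1, 2 and 3. Without control replicate 2 it was 0.92 and passed, with an adjusted p of 0.04. In the other 20 of 21 alternative settings it did not pass. Within scan day 3 it was 0.25, which sets 1 Hif-1α array against 2 controls, control replicate 2 among them. The Hif-3α and Hif-1α comparisons share their control arrays, so that array bears on both.

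**Figure D1:**
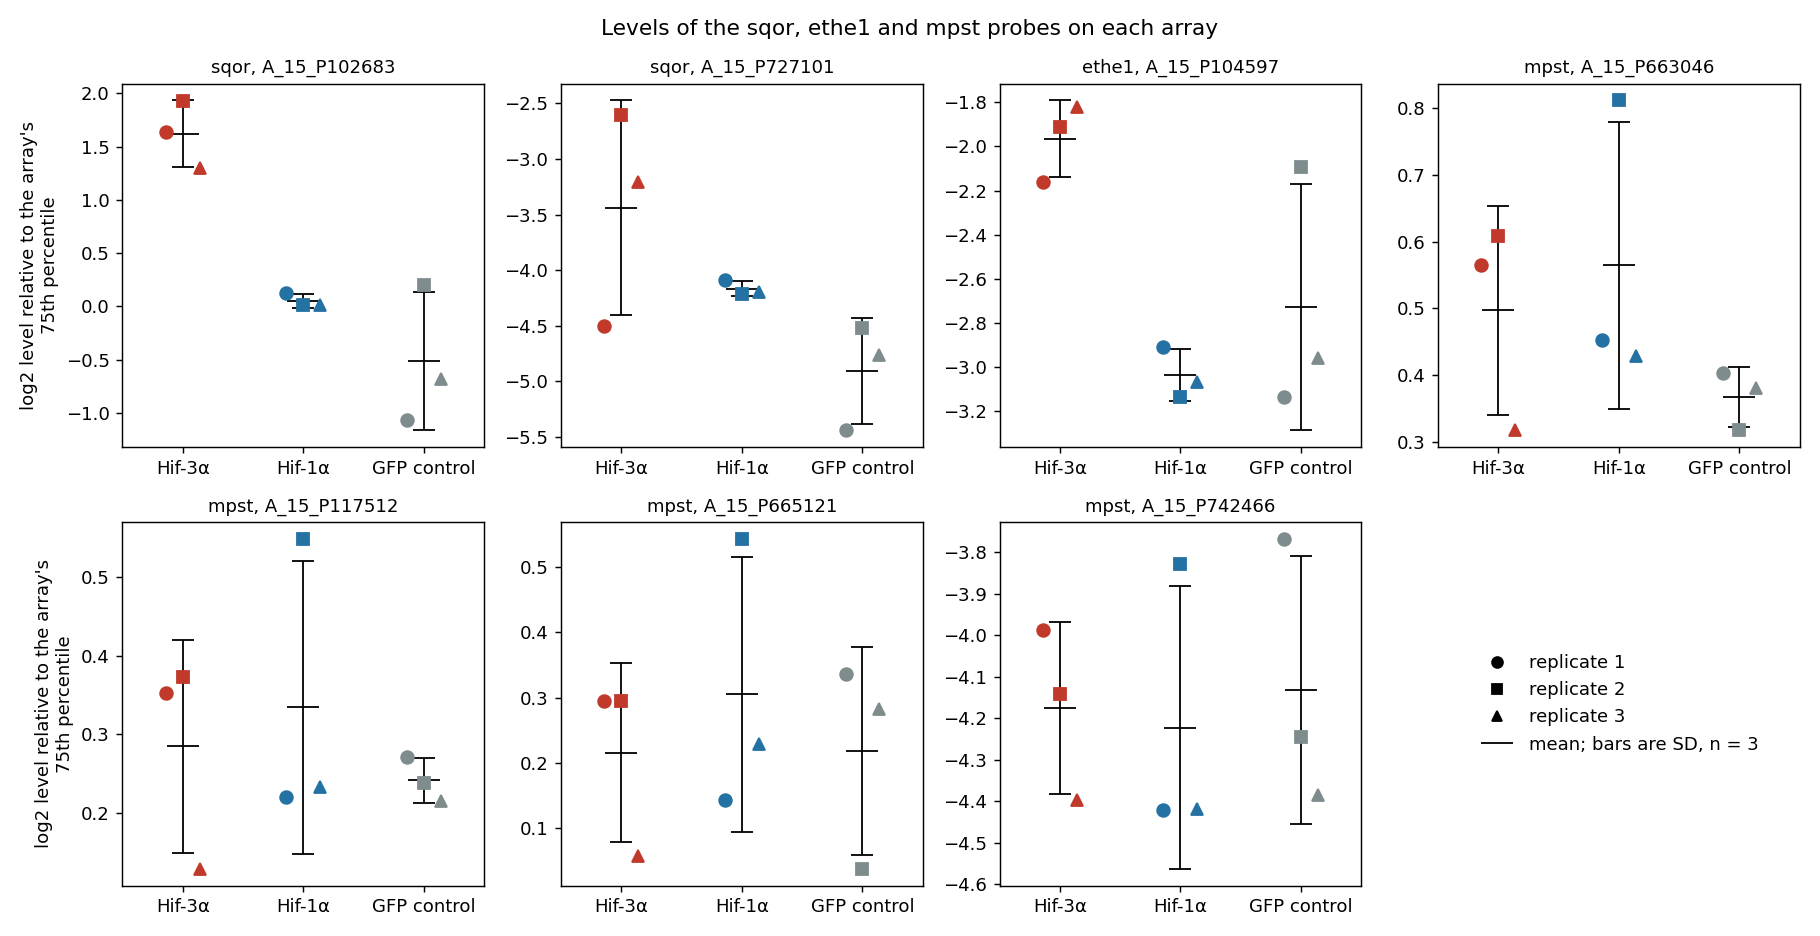
Level of each of the 7 sqor, ethe1 and mpst probes that passed the filter, as log2 signal relative to the 75th percentile of the array (vertical axis, scaled per probe), on the Hif-3α, Hif-1α and GFP control arrays. Coloured points are arrays, with the shape giving the replicate, and black lines are the group mean and SD (n = 3). For sqor A_15_P102683 the Hif-3α arrays sit at 1.30 to 1.93, above all others, while control replicate 2 (square, 0.20) is the highest control.

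The other sqor probe, A_15_P727101, was dim. Its level was -4.50, -2.61 and -3.21 with Hif-3α, -4.09, -4.22 and -4.20 with Hif-1α and -5.44, -4.52 and -4.76 in controls. Hif-3α and control did not overlap, with -4.50 the lowest Hif-3α level and -4.52 the highest control level. In the authors' deposited log2 matrix they did overlap, with Hif-3α replicate 1 at 4.550 and control replicate 2 at 4.557. Hif-1α and control did not overlap, but Hif-3α replicate 1 lay below all 3 Hif-1α arrays. Spot brightness was 62.0 to 180.0 with Hif-3α, 70.0 to 75 with Hif-1α and 74.0 to 83.0 in controls, against a local background of 29.0 to 42.5.

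Its differences were in the same direction as those of the brighter probe, at 1.47 ± 0.44 for Hif-3α against control (2.77-fold), 0.73 ± 0.44 for Hif-3α against Hif-1α and 0.74 ± 0.44 for Hif-1α against control (SE, n = 3 a group). None passed, with adjusted p of 0.619, 0.406 and 0.309 from limma. Over the 9 arrays the levels of the sqor probes had a Pearson r of 0.79, given as a description. A background correction that estimates the signal from spot and local background (normexp) gave the dim probe a difference from control of 0.65 with Hif-3α. It turned that with Hif-1α to -0.28. With normexp the median of all probes for Hif-1α against control was -0.23, against -0.02 in the main fit.

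The persulfide dioxygenase gene ethe1, which acts after sqor, was measured by probe A_15_P104597. Its level was -2.16, -1.91 and -1.82 with Hif-3α, -2.91, -3.14 and -3.07 with Hif-1α and -3.14, -2.09 and -2.96 in controls. Hif-3α lay above Hif-1α without overlap. Against control the groups overlapped through control replicate 2, which at -2.09 was above Hif-3α replicate 1.

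The ethe1 difference between Hif-3α and Hif-1α was 1.07 ± 0.26 (SE, n = 3 a group), or 2.10-fold, with a 95% confidence interval of 0.49 to 1.65. Limma's adjusted p of 0.0985 did not pass. It was 0.0161 without control replicate 2 and 0.0294 when the fit held the Hif-3α and Hif-1α arrays alone, and both of these passed. Control arrays enter this comparison only through the shared spread, and leaving them out does not change the difference. In the other 19 of 21 alternative settings ethe1 did not pass. The differences by replicate number were 0.75, 1.22 and 1.25. For Hif-3α against control the difference was 0.77 ± 0.26 (1.70-fold, adjusted p = 0.681), positive in all 3 same-numbered pairs at 0.98, 0.18 and 1.14. It was 0.39 with normexp. For Hif-1α against control it was -0.31 ± 0.26 (adjusted p = 0.466), and without control replicate 2 it was 0.01. The ethe1 level followed that of the brighter sqor probe over the 9 arrays with an r of 0.83, which the group means and control replicate 2 enter together. The remaining ethe1 probe, A_15_P732521, was not well above background on any array.

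The sulfurtransferase gene mpst was read by 3 bright probes and 1 dim probe. By its brightest probe, A_15_P663046, the level was 0.57, 0.61 and 0.32 with Hif-3α, 0.45, 0.81 and 0.43 with Hif-1α and 0.40, 0.32 and 0.38 in controls. The Hif-3α arrays overlapped both other groups, while the lowest Hif-1α array lay just above the highest control. The differences were 0.13 ± 0.15 between Hif-3α and control, 0.20 ± 0.15 between Hif-1α and control and -0.07 ± 0.15 between Hif-3α and Hif-1α (SE, n = 3 a group), with limma's adjusted p of 0.941, 0.413 and 0.836. The interval for Hif-3α against control ran from -0.20 to 0.46.

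Probes A_15_P117512 and A_15_P665121 gave mpst differences of 0.04 and -0.00 for Hif-3α against control, with intervals of -0.27 to 0.35 and -0.36 to 0.35. For Hif-1α against control they gave 0.09 each. The dim probe A_15_P742466 gave -0.04 for Hif-3α and -0.09 for Hif-1α against control. Bright mpst probes tracked each other over the 9 arrays, with r of 0.84 to 0.95, and Hif-1α replicate 2 was the highest array for each of them. The fifth mpst probe, A_15_P108124, was not well above background on any array. With r of -0.19 to 0.23, none of the 4 mpst probes that passed the filter followed sqor closely.

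**Figure D2:**
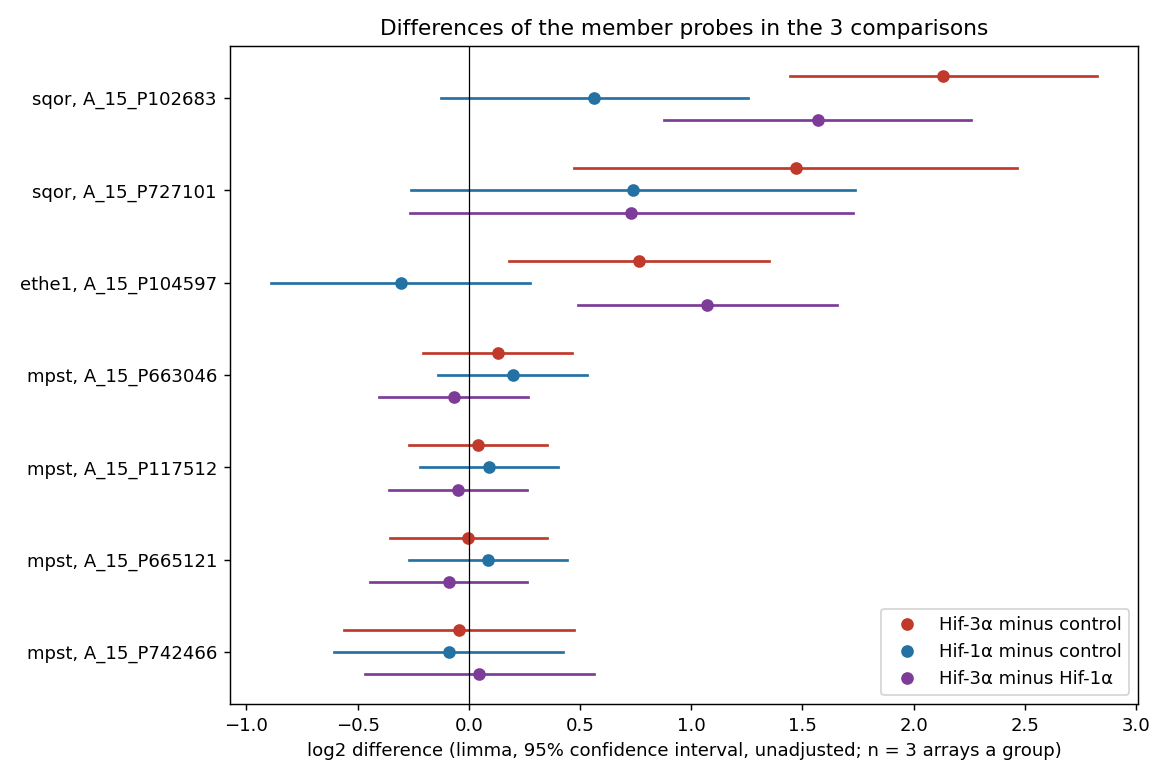
Log2 differences (horizontal axis) of the 7 member probes that passed the filter, for Hif-3α minus control, Hif-1α minus control and Hif-3α minus Hif-1α. Points are limma estimates and lines are unadjusted 95% confidence intervals (n = 3 arrays a group). The sqor intervals against control with Hif-3α, 1.44 to 2.82 and 0.47 to 2.47, lie above 0, and the mpst intervals all include 0.

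Of the 9 member probes 7 passed the filter, and 0 passed limma's test in each comparison. Of all probes, 0.0321% passed for Hif-3α against control. The share was 8.49% for Hif-1α against control, and 0.964% when Hif-3α was set against Hif-1α. At an unadjusted p under 0.05 there were 3 member probes for Hif-3α against control (both sqor probes and ethe1), where 5.81% of all probes were under it. There were 0 for Hif-1α against control, where 27.5% of all probes were, and 2 for Hif-3α against Hif-1α (sqor and ethe1), where 18.2% were. Groups did not overlap for 2 of the 7 probes in each comparison. For Hif-3α against control these were the sqor probes, and the dim sqor probe did overlap in the deposited matrix. Of all probes 10.9% did not overlap between Hif-3α and control, 33.2% between Hif-1α and control, and 26.6% between Hif-3α and Hif-1α.

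The pathways that feed or drain sulfide were followed through 79 genes, the members included, in 7 lists. The lists were chosen with earlier results of these data known, so their shares are not independent evidence. Of these 61 had a probe and 60 were measured, each by its brightest probe. Shares of all genes are over 19547 brightest probes, of which 10642 had a symbol, as all 60 do. The rest stand for identifiers without a symbol. For Hif-3α against control 0 of the 60 passed, where 0.0256% of all genes did, and their median difference was -0.01 against 0.02 for all genes. For Hif-1α against control 11 passed, 5 higher and 6 lower, or 18.3% against 8.88% of all genes (5.45% higher and 3.42% lower), with a median of -0.26 against -0.01. For Hif-3α against Hif-1α 2 passed, 1 in each direction, or 3.33% against 0.921% of all genes (0.184% higher and 0.737% lower), with a median of 0.17 against 0.03. With the replicate block the counts were 0, 22 and 9, where 14, 6672 and 1282 of all 31114 probes passed. In the main fit 10, 2641 and 300 of all probes had passed. At an unadjusted p under 0.05 from limma there were 9, 27 and 24 of the 60 in the same comparisons. Of all probes, 5.81%, 27.5% and 18.2% were under it. In a fit of the brightest probe of each gene alone, 1191, 5562 and 3719 of 19547 were.

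In the sulfide oxidation list tstd3, of the thiosulfate sulfurtransferase family, was the other measured gene. Its difference was -0.46 for Hif-3α against control (limma, adjusted p = 0.808) and -0.29 for Hif-1α against control (adjusted p = 0.322; -0.18 without control replicate 3). The smallest p of this list belonged to sqor in each comparison.

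Transsulfuration and cysteine use held 4 of the genes that changed with Hif-1α, 2 in each direction of 11 measured. Among the 11, cbsa was kept by the filter only through the control arrays, and it did not pass. The mitochondrial aspartate aminotransferase got2b had levels of 2.90, 3.07 and 3.39 with Hif-3α, 4.88, 4.88 and 4.72 with Hif-1α and 3.20, 3.53 and 3.55 in controls. The Hif-1α arrays lay above all the others. It rose 2.65-fold with Hif-1α against control (limma, adjusted p = 0.00416) and was lower with Hif-3α than with Hif-1α by a difference of -1.71 ± 0.17 (SE, n = 3 a group, adjusted p = 0.00309).

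The cytosolic counterpart got1, which can also transaminate cysteine to the substrate of mpst, moved the other way. Its levels were 0.39, 0.70 and 0.31 with Hif-3α, -0.18, -0.39 and -0.50 with Hif-1α and 0.82, 0.70 and 0.72 in controls. With Hif-1α it fell to 0.465-fold of control (adjusted p = 0.00633 from limma), and with Hif-3α it was 1.77-fold above Hif-1α (adjusted p = 0.043).

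With Hif-1α, csad, the cysteine sulfinate decarboxylase of taurine synthesis, rose 2.37-fold (limma, adjusted p = 0.0191). The cystathionine beta-synthase gene cbsb fell by 0.44 ± 0.11 (adjusted p = 0.0479), and its other 2 probes had differences of -0.60 and -0.15 that did not pass. The cystathionine gamma-lyase-like gene cthl, which lies next to cth in the RefSeq table, had a difference of -0.63 with Hif-1α (adjusted p = 0.174; -0.39 without control replicate 1) and -0.06 with Hif-3α (adjusted p = 0.993). For Hif-3α against control the smallest p of the list was that of kyat1, a cysteine conjugate beta-lyase, with a difference of -0.43 (adjusted p = 0.767).

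Sulfate activation and the molybdenum cofactor, which sulfite oxidase needs, held 3 genes that rose with Hif-1α, of 9 measured. Of the 9, bpnt1 and mocs1 did not pass. They were kept by the filter only through the Hif-1α arrays, so their differences are not separate support. The cofactor synthesis gene mocs3 had a level of 0.36 ± 0.28 with Hif-3α, 1.23 ± 0.17 with Hif-1α and 0.01 ± 0.30 in control embryos (SD, n = 3 each), and rose 2.33-fold with Hif-1α (limma, adjusted p = 0.0135). The anion transporter gene slc26a1 rose 2.27-fold (adjusted p = 0.0362) and papss2a, which makes the activated sulfate used by sulfotransferases, 2.01-fold (adjusted p = 0.0208). With normexp the papss2a difference was -0.17, where the median of all probes was -0.23. For Hif-3α against control the smallest p was that of bpnt2, with a difference of 0.34 (adjusted p = 0.83).

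The methionine, glutathione and ubiquinone lists held 4 genes that fell with Hif-1α. In the methionine cycle 1 of 10 measured genes fell, the methionine synthase gene mtr, by 0.60 ± 0.15 (limma, adjusted p = 0.0487). Its other 2 probes had differences of -0.89 and 0.46 that did not pass. Glutathione genes fell in 2 of 10 cases, gsr (glutathione reductase) by 0.55 ± 0.12 and gpx1a (a glutathione peroxidase) by 0.63 ± 0.14, with adjusted p of 0.0291 and 0.0307. In ubiquinone synthesis, which supplies the electron acceptor of sqor, pdss2 fell by 1.04 ± 0.26 (adjusted p = 0.0432) and was the gene that passed among 11. Of the 5 thioredoxin genes 0 passed, and txnrd3 had the smallest p with a difference of -0.60 (adjusted p = 0.0751).

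For Hif-3α against control none of these lists held a gene that passed. The genes with the smallest p included gpx4a for glutathione (-0.61, adjusted p = 0.859 from limma), txnl1 for thioredoxin (-0.11, adjusted p = 0.957) and coq4 for ubiquinone synthesis (-1.60, adjusted p = 0.869). The coq4 value rested on Hif-3α replicate 1, where the probe was not well above background, and was -0.51 without that array. Without Hif-3α replicate 2 the gpx4a difference was -0.38, and that of txnl1 ran from -0.22 to -0.04 as single arrays were left out. Against Hif-1α they were mat2ab in the methionine cycle (1.34, adjusted p = 0.193), gss for glutathione (-0.63, adjusted p = 0.15) and txnrd3 for thioredoxin (0.57, adjusted p = 0.197). The other smallest p values belonged to mocs3 (-0.87, adjusted p = 0.0938) and coq10b (0.49, adjusted p = 0.141).

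Some markers of the yolk syncytial layer moved on the Hif-1α arrays along with these sulfur genes. Of 9 measured, 4 (gata6, hnf4a, mxtx1 and mxtx2) rose with Hif-1α, where 5.45% of all genes did. Of these, mxtx2 was kept by the filter only through the Hif-1α arrays, where it was high, so its rise is not separate support. With Hif-3α against control 0 rose. The Hif-1α differences were above 0 for 6 of the 9, while those of apoa4b.1, rbp4 and slc40a1 were below 0, down to -0.84. The mean level of the list was 0.19 to 0.73 with Hif-3α, 0.88 to 1.06 with Hif-1α and -0.16 to 0.63 in controls. The endoderm list had 0 of 4 genes passing, with mean levels of -1.50 to -0.44 with Hif-3α, -0.54 to 0.59 with Hif-1α and -2.46 to -0.63 in controls. In that list sox17 was likewise kept only through the Hif-1α arrays. On the hatching gland list of 3 genes, ctsl.1 rose 15.6-fold with Hif-1α, from -4.09, -2.47 and -3.34 in controls. The others, he1.1 with a difference of -0.28 and klf17 with 0.27, did not pass. Whether ctsl.1 marks that tissue here was not tested. The part of these cell types in the sulfur gene results was not tested.

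The 11 calls with Hif-1α depended on the arrays and settings used. Each is a call of the gene's brightest probe. The genes got1 and gsr had 3 probes each, and csad, mocs3, slc26a1, papss2a and gpx1a had 2 each. Values of their other probes are not given here. All 11 passed with the replicate block, and 2 of them, got2b and got1, passed whichever 1 array was left out. Of 21 alternative settings, those in which a gene did not pass ran from 3 for got2b and got1 to 17 for cbsb. Within scan day 3, where Hif-1α had 1 array, all 11 differences kept their sign, and of all probes tested with so few arrays 0 passed.

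**Figure D3:**
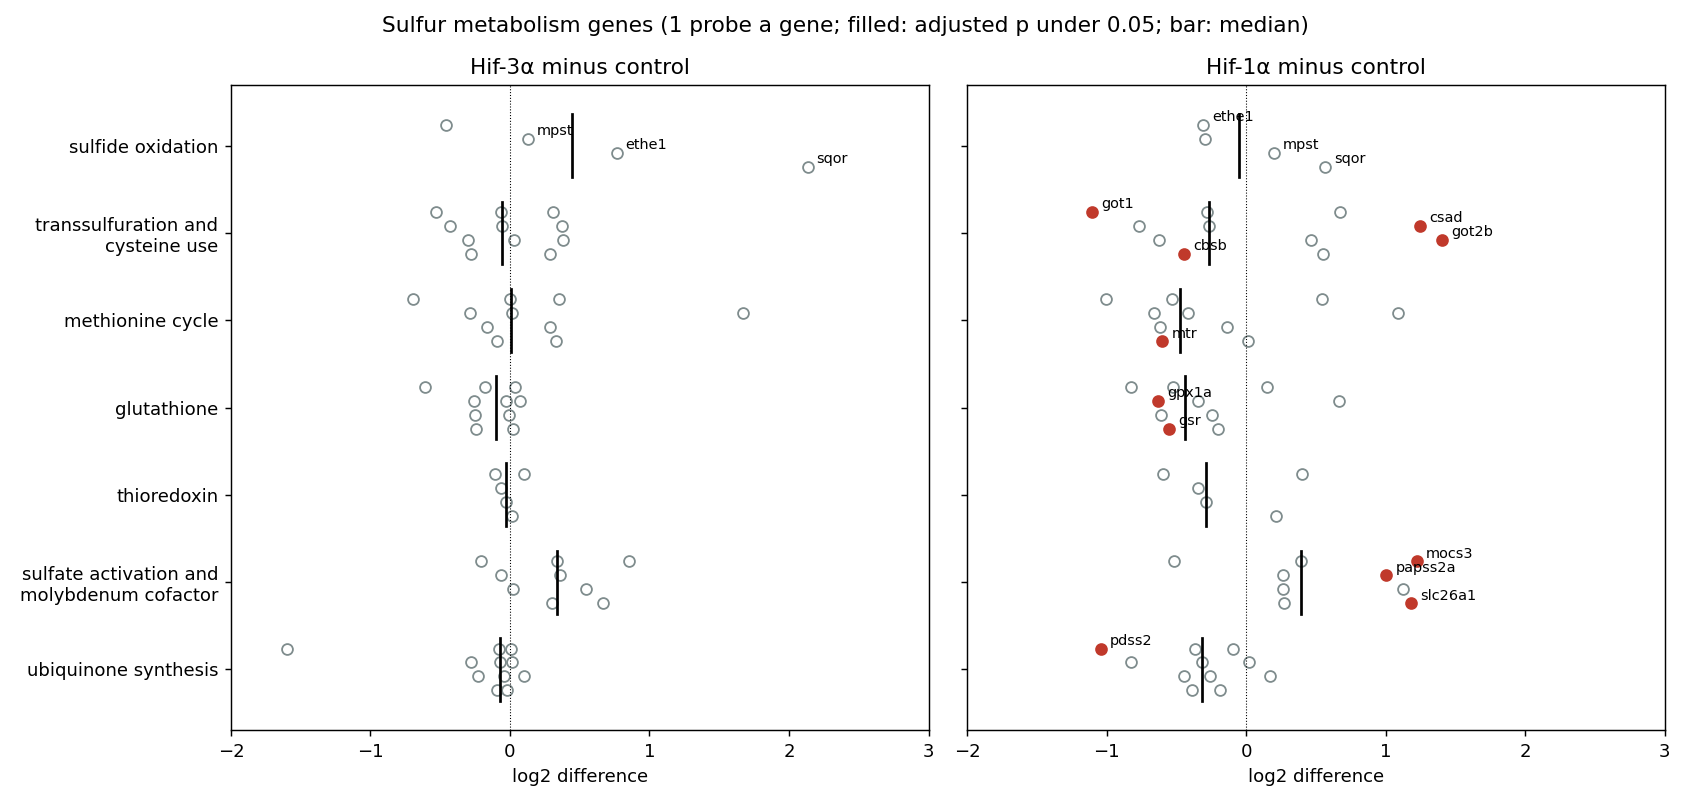
Log2 differences (horizontal axis) of the 60 measured sulfur metabolism genes, 1 probe a gene, by list, for Hif-3α minus control (left) and Hif-1α minus control (right). Filled red circles passed limma's test at an adjusted p under 0.05, open circles did not, and the black bar is the median of the list. For Hif-3α 0 circles are filled and sqor is the rightmost, and for Hif-1α 11 are filled.

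The 4 genes whose levels most resembled sqor over the 9 arrays were sought among 9678 genes with a proper symbol, by Pearson r with the brighter sqor probe. They were zp3d.2 (r = 0.967), frs2b (0.945), mbd3a (0.941) and cyfip2 (0.938), and these values describe levels that share the same groups and arrays. The zona pellucida gene zp3d.2 had levels of -1.37, -1.97 and -1.98 with Hif-3α, -3.58, -4.04 and -3.81 with Hif-1α and -5.47, -4.15 and -5.54 in controls. The groups followed the same order as for sqor and did not overlap, and control replicate 2 was the highest control. Because zp3d.2 was chosen for its likeness to sqor on these same arrays, this likeness is not separate evidence.

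The zp3d.2 difference was 3.28 between Hif-3α and control (limma, adjusted p = 0.0383) and 2.04 between Hif-3α and Hif-1α (adjusted p = 0.0443). It passed in both, on the arrays by which the gene was chosen. For frs2b, mbd3a and cyfip2 the Hif-3α differences from control were 0.43, 0.19 and 0.41, smaller than that of sqor, and did not pass.

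**Figure D4:**
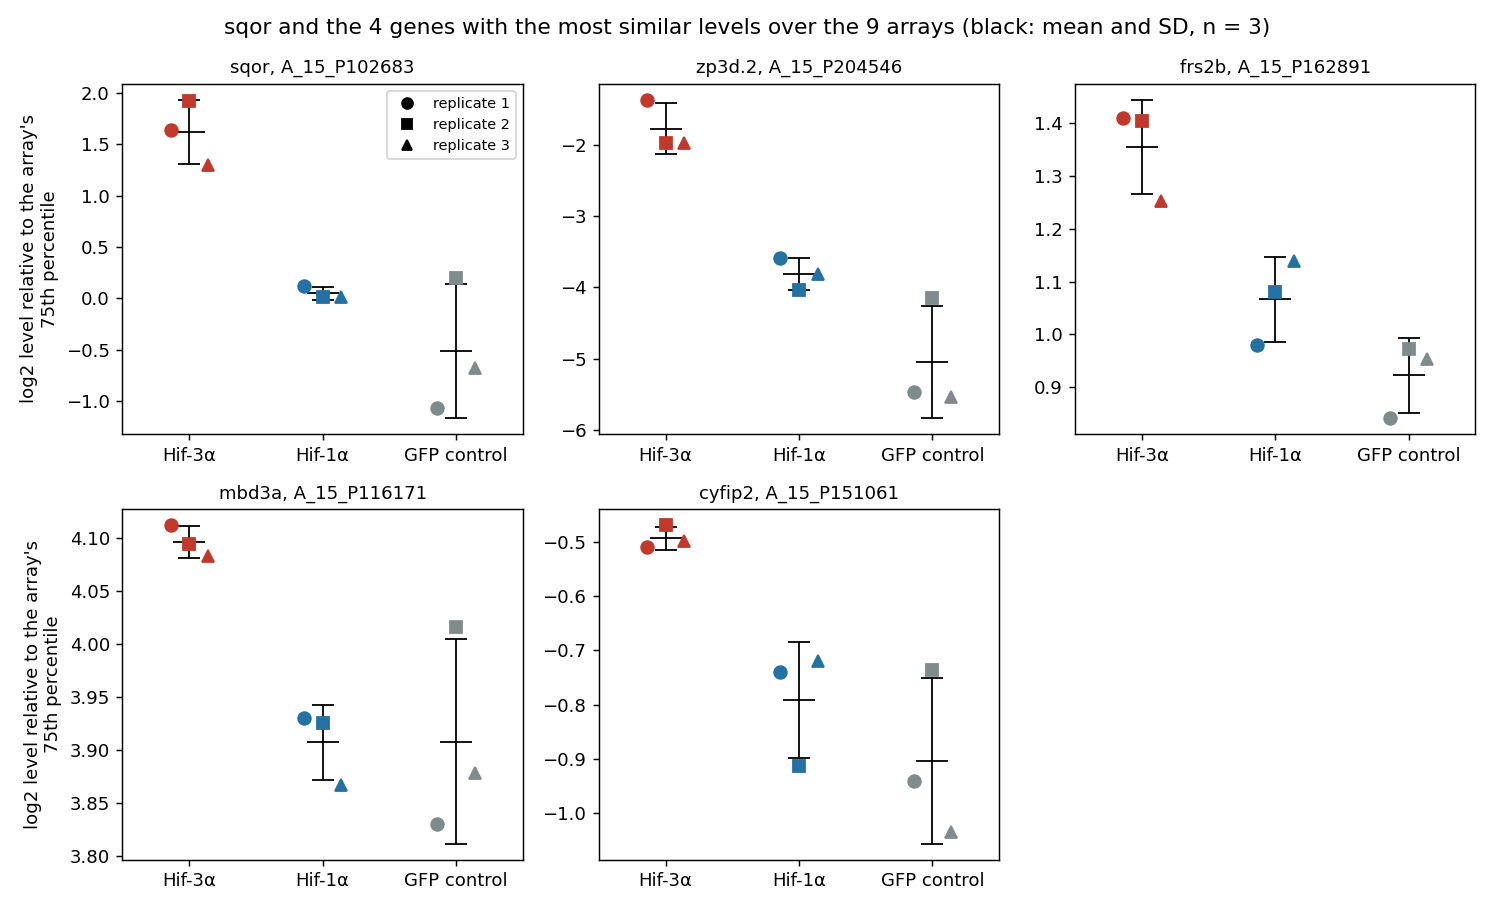
Level of sqor and of the 4 genes most like it, as log2 signal relative to the 75th percentile of the array (vertical axis, scaled per gene), on the Hif-3α, Hif-1α and GFP control arrays. Points are arrays, shapes are replicates, and black lines are the mean and SD (n = 3). In each panel the 3 Hif-3α arrays are the highest, and control replicate 2 (square) is the highest control. The genes were chosen by their r with sqor over these arrays, so such a likeness is built in.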

How the data were processed

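RNA was hybridised to 1-colour (Cy3) Agilent arrays of grid design 026437, per the file headers (a mouse array is named in the labelling protocol). The deposited scanner files give each spot's processed, median and background signals as intensities, with spot flags as other values, from Feature Extraction 10.7.3.1. The authors normalized in GeneSpring 11.0, per the series design text, and deposited a log2 matrix, used here as an alternative (its columns had medians of 6.09, with the centring unknown).

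Probes were named through RefSeq identifiers in the table of assembly GRCz12tu, used for names and neighbours alone: 25069 of 43603 probes received a symbol. Outlier-flagged values were dropped, among them 437 spots of Hif-3α replicate 1. The log2 processed signal minus each array's 75th percentile entered limma 3.58.1 (R 4.3.3) (1 mean per group, 9 arrays, two-sided, Benjamini-Hochberg). Normexp used the median signals and an offset of 50.

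Named genes were all member probes, up to 4 passing genes (else the smallest p) per list and comparison, and the genes most like sqor, with cthl and tstd3 added after their values were seen. The values of 1 gene that this rule names are not reported here. The members and lists were chosen with earlier results of these data known. Same-numbered arrays deviated together (r of 0.116 to 0.598 in 9 of 9 pairs). The number was therefore used for same-number differences and tried as a block. The main fit, with its SE and p values, leaves this pairing out. On simulated data 83.0% of probes changed by 2 on the log2 scale were recovered for Hif-1α against control, and 39.0% of those changed by 1. There were 7 false calls. The simulated noise was independent between arrays, and 100 probes of each size were changed. These rates need not hold for the real arrays or for the Hif-3α comparisons, which were not simulated. No sequence is shown.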

Additional observations from a re-analysis of the deposited data

How the results depend on the processing

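Each result was recomputed under 21 alternatives, 9 of which leave out 1 array. The sqor difference (probe A_15_P102683) kept its sign in all of them, at 1.78 to 2.49 for Hif-3α against control, 1.38 to 1.73 for Hif-3α against Hif-1α and 0.25 to 0.92 for Hif-1α against control. For Hif-3α against Hif-1α it passed when centred on the array median (1.63, adjusted p = 0.0491 by limma), with the groups compared alone (1.57, 0.0167), with the replicate block, which pairs the arrays (1.57, 0.0337), and with slide as a random block (1.62, 0.0457). The member probes called were then 1, 2, 1 and 1, and 0 to 2 when arrays were left out, where the sqor difference was 1.42 to 1.73. Of all 31114 probes, 314, 360, 1282 and 376 were called in these settings, and 106 to 461 when arrays were left out. The main fit called 300. Leaving out arrays gave sqor differences of 1.86 to 2.49 for Hif-3α against control, with 0 to 1 member probes and 0 to 2 sulfur genes called. For Hif-1α against control it gave 0.29 to 0.92 and 0 to 1 member probes. Calls over all probes then ran from 3 to 27 for Hif-3α against control and from 612 to 2889 for Hif-1α against control. In both comparisons the highest values were those without control replicate 2.

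Sulfur genes called for Hif-1α against control, 11 in all, numbered 0 with normexp, 5 without a filter on dim probes, 5 with the groups compared alone, 22 with the replicate block, 0 with scan day as a block, 0 within scan day 3, 7 with slide as a random block and 3 to 16 when arrays were left out (3 without control replicate 1 or 3 or Hif-1α replicate 2 or 3, 4 without Hif-1α replicate 1, 7 and 6 without Hif-3α replicates 2 and 3). For Hif-3α against Hif-1α, 2 in all, they numbered 0 with normexp, 1 without the filter, 4 with the groups compared alone, 9 with the replicate block, 0 with scan day as a block, 0 within scan day 3 and 1 to 5 when arrays were left out. Calls over all probes moved too. For Hif-1α against control they were 2641 in the main fit, 15 with normexp and 1149 without the filter. They were 1093 with the groups compared alone, 6672 with the replicate block and 1865 with slide as a random block. For Hif-3α against Hif-1α they were 300 in the main fit, 15 with normexp and 151 without the filter. With the groups compared alone they were 360, and with the replicate block 1282. The block changed no call of a member other than that of sqor. Signs turned for the dim sqor probe A_15_P727101 (-0.28) and papss2a (-0.17) with normexp for Hif-1α against control, for ethe1 A_15_P104597 in Hif-1α against control without control replicate 2 (0.011, in a range of -0.51 to 0.011 over the arrays left out), and for mpst A_15_P663046 in Hif-3α against Hif-1α without Hif-1α replicate 2 (0.057, in a range of -0.14 to 0.057) or Hif-3α replicate 3 (0.02). With normexp the median of all probes for Hif-1α against control was -0.23, against -0.02 in the main fit. The cause of the turned signs was not tested. Over all probes, calls for Hif-1α against control ran from 0 within scan day 3 to 6672 with the replicate block, for Hif-3α against control from 1 to 27 and for Hif-3α against Hif-1α from 5 to 1282.

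With 3 arrays a group, differences near the SE of a probe were not detectable, and spot signals near the local background limit the dim sqor, ethe1 and mpst probes. Scan day 1 and 2 each held 1 array and day 4 Hif-1α arrays alone, so within-day values rest on 5 arrays. Of these 1 was a Hif-1α array, assumed to vary like the other groups, so counts of 0 under scan day say little about Hif-1α.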
